A study of Mus musculus with 9 samples.

Results

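Glucose transport and glycolysis are described here through 10 genes: the hexose transporters Slc2a1, Slc2a3 and Slc2a6, and the enzymes Hk1, Hk2, Pfkl, Pfkp, Aldoa, Eno1 and Ldha. They were chosen by gene symbol, with earlier results of these data known, so their counts beside all tested genes are a description. Each symbol matched 1 entry among the 23700 of every gene table, and all 10 were among the 10004 genes that entered the tests. The libraries came from germinal center B cells of mouse spleen, in 3 groups of 3. The Foxo1-deficient group was Foxo1(f/f) with the allotype CD45.1/2 and was sorted as whole germinal center cells, without a zone gate. The dark zone (DZ) and light zone (LZ) groups were Foxo1(+/+) with the allotype CD45.1/1, sorted as CD86-low CXCR4-high and CD86-high CXCR4-low cells. Every group also carried B1-8hi(KI/+), an NP-binding antigen receptor, as well as ERT2cre(KI/+), a recombinase switched on by tamoxifen. Both donor genotypes were transferred together into C57BL/6 mice, which were immunized with NP-CGG in alum, received tamoxifen by mouth on days 7 to 9 and were sampled on day 12, with about 10000 sorted cells per library. Neither the promoter of ERT2cre nor the age of the mice was given in the sources used here. The labels give Foxo1(f/f) cells a CD45.1/2 genotype but a CD45.2-negative gate, which was not resolved here. Genotype and gate changed together in each comparison with a wild-type zone, so their parts cannot be told apart.

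Glycolysis splits glucose to pyruvate and yields ATP together with precursors for nucleotides, lipids and amino acids. Hexose transporters admit glucose, hexokinase traps it as glucose 6-phosphate, phosphofructokinase commits it to the pathway, aldolase and enolase act further down, and lactate dehydrogenase turns pyruvate into lactate and regenerates NAD+. In lymphocytes, antigen receptor and costimulatory signals through PI3K and Akt promote glucose uptake and also keep Foxo1 out of the nucleus, while Myc and HIF-1 activate glycolytic genes, Ldha and Slc2a1 among them.

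The members that set LZ cells apart are the reason for showing 5 promoters: those of Ldha and Slc2a6, the genes that passed the test, and of Hk2, Pfkp and Aldoa, which were lower outside LZ in every library. Each line gives the 250 bases before the annotated start, from RefSeq on GRCm38.p6. Capitals mark CACGTG (the E-box bound by Myc and Max) and ACGTG (a form of the core of the hypoxia response element), searched on both strands. Other forms of this core were not searched. ACGTG lies inside CACGTG, so an E-box holds ACGTG as well, and on the other strand ACGTG reads CACGT. Where RefSeq gives a gene several starts, 1 window is shown, the first listed except for Aldoa, where it is 1 that holds ACGTG. The windows are chr7:46845554-46845803 on the plus strand for Ldha, chr2:27027999-27028248 on the minus strand for Slc2a6, chr6:82774455-82774704 on the minus strand for Hk2, chr13:6648772-6649021 on the minus strand for Pfkp and chr7:126799255-126799504 on the minus strand for Aldoa.
Ldha: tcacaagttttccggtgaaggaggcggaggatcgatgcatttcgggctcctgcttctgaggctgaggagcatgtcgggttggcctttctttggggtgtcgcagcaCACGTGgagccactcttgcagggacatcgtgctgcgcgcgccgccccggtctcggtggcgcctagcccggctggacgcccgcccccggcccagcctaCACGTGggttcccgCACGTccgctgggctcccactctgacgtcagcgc
Slc2a6: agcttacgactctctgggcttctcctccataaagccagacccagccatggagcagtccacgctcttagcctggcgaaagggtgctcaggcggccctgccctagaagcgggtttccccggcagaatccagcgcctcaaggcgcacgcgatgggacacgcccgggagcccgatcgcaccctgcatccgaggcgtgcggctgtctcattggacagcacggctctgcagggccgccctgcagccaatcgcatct
Hk2: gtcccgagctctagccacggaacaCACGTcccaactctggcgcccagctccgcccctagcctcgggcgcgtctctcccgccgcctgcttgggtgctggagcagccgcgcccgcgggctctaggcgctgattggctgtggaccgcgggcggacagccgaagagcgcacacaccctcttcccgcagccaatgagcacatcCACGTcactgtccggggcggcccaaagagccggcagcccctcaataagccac
Pfkp: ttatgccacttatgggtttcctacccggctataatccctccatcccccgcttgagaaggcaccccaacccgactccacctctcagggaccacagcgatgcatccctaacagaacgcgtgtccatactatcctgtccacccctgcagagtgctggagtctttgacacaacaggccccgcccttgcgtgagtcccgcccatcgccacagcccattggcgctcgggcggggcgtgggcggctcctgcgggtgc
Aldoa: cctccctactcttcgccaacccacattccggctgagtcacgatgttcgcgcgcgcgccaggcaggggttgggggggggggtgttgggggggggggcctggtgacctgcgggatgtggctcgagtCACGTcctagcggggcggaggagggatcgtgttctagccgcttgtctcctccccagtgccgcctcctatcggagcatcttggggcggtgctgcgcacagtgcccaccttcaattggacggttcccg
The Ldha window held CACGTG at 2 places, beginning 145 and 48 bases before the start, and a further ACGTG at 34 bases. Hk2 held ACGTG at 226 and 52 bases, Slc2a1 held it at 36 bases, and 2 overlapping windows of Aldoa shared 1 copy. In the windows of Slc2a6 and Pfkp neither run of letters was found. Of 9 members with a RefSeq window (15 windows in all, with none for Slc2a3), 1 held CACGTG, 4 held ACGTG (with or without CACGTG) and 0 held the forkhead motif GTAAACA. Counted by window, 1 of 15 held CACGTG, 5 held ACGTG and 0 held GTAAACA. Of all 32851 windows of this length, 6.0% held CACGTG, 16.6% ACGTG and 3.2% GTAAACA. These matches describe letters in the windows and say nothing of binding.

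Expression is given as FPKM, fragments scaled by transcript length and library total, as the authors deposited it. Differences are on the log2(FPKM + 1) scale, where low genes appear to move less than they do, and each comes with its standard error (SE), a 95% interval or an adjusted p from limma over all tested genes, two-sided, with a threshold of 0.05. Among the libraries, 11229 to 12495 entries were above 0, and the confidence intervals in the tables implied depths of 0.82 to 1.11 relative to each other. Foxo1 was 3.01, 1.79 and 0.808 FPKM in the Foxo1-deficient libraries, against 19.1 to 24.5 FPKM in DZ and 14.8 to 22.1 FPKM in LZ. Germinal center B cell markers (10 of 10 above 0 in every library) summed to 2061 to 2470 FPKM in Foxo1-deficient cells, 1594 to 1940 in DZ and 1985 to 2225 in LZ. T cell markers summed to 15.6 to 25.6 FPKM in Foxo1-deficient cells, 13.5 to 20.7 in DZ and 28.0 to 32.6 in LZ, most of it Lck (19.0 ± 5.19, 14.5 ± 4.78 and 26.7 ± 0.600, SD, n = 3), and 4 of the 12 (Cd3e, Cd3g, Cd4 and Trat1) were listed at 0 throughout. Myeloid markers summed to 184 to 353 FPKM in Foxo1-deficient cells, 0.989 to 5.95 in DZ and 3.07 to 7.57 in LZ, with 12 of 18 above 0 in each Foxo1-deficient library and Cd14, Elane and Mpo at 0 everywhere. Erythroid and platelet markers summed to 376 to 1129 FPKM in Foxo1-deficient cells, 13.7 to 29.2 in DZ and 24.4 to 49.2 in LZ, with Pf4 and Ppbp at 0 everywhere. This sum takes 16 entries of 14 genes, because Hba-a1 and Hba-a2 are listed repeatedly with similar values, so it may count the same RNA more than once. Myeloid and red cells also express hexose transporters and glycolytic enzymes, and the part of this RNA in the values below was not tested. As in any bulk sample, fewer cells of a kind and less RNA per cell cannot be told apart.

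The 10 genes covered a wide range of levels. Aldoa, Ldha, Eno1 and Pfkp held the first 4 ranks in each group, and the order of the others differed. Slc2a6 changed most, from rank 10 in Foxo1-deficient and DZ cells to rank 5 in LZ. In Foxo1-deficient cells Aldoa (102 ± 11.7 FPKM, SD, n = 3), Ldha (92.3 ± 17.1) and Eno1 (52.1 ± 5.88) stood far above the rest, and the libraries of Aldoa and Ldha overlapped. Pfkp (12.1 ± 3.56) and Pfkl (8.59 ± 1.44) came next, also overlapping. Slc2a1 (4.23 ± 2.23), Hk1 (3.71 ± 1.06), Slc2a3 (2.75 ± 0.531), Hk2 (2.40 ± 0.555) and Slc2a6 (1.70 ± 0.920) formed the low end, and each overlapped its neighbour in this order. In DZ the same 3 enzymes led, with Ldha at 118 ± 15.6 FPKM, and Slc2a6 was again last at 1.67 ± 1.5. In LZ Ldha reached 176 ± 8.38 FPKM, and Slc2a6 took rank 5 at 10.7 ± 4.63, overlapping Pfkl, the next in order. Fragments implied by the intervals numbered 493 to 1130 per library for Ldha and only 3 to 172 for Slc2a6, so the counting error of the transporter is much the larger.

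**Figure D1:**
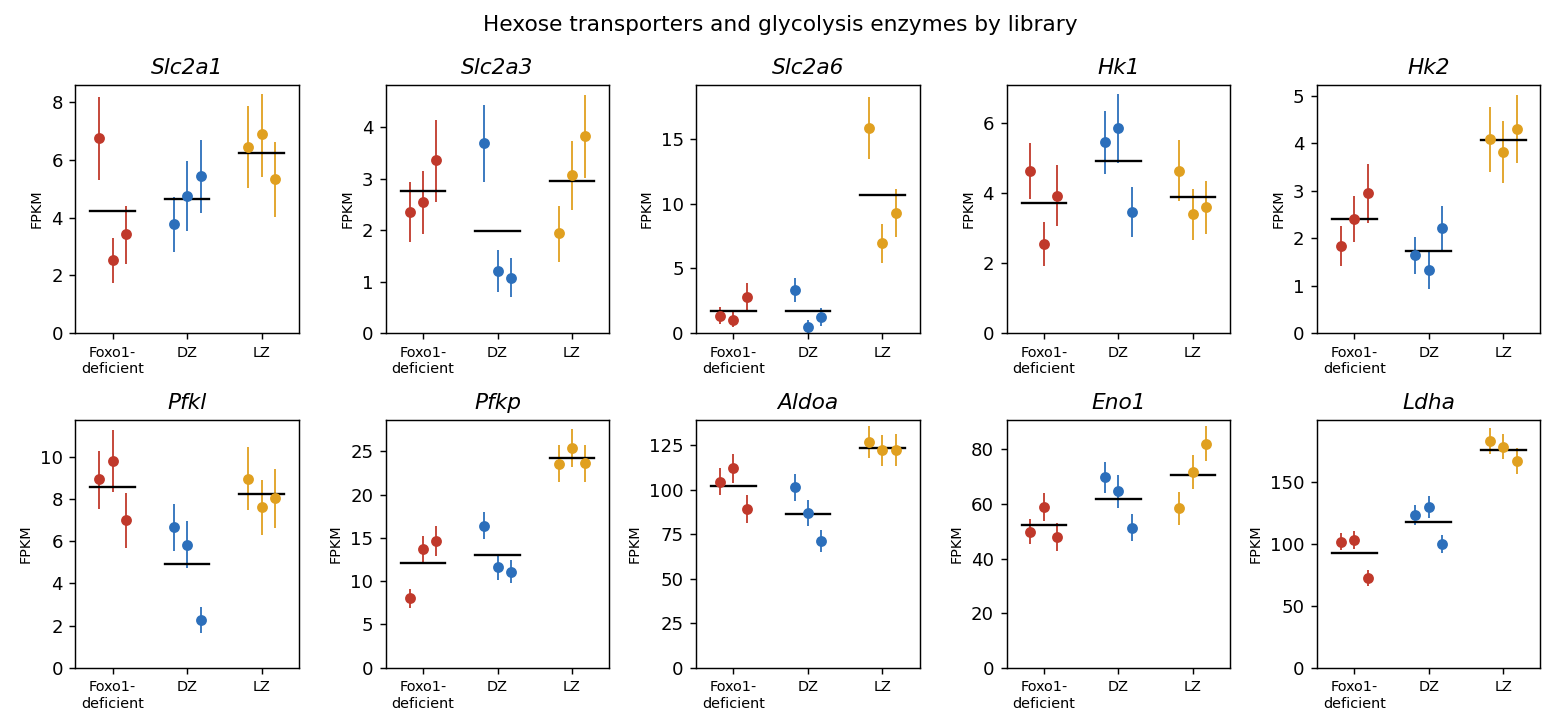
FPKM of the 10 genes in the 9 libraries (vertical axes start at 0), with the groups Foxo1-deficient, DZ and LZ from left to right; points are libraries with the confidence interval of the deposited tables, and black lines are group means. For Slc2a6, Hk2, Pfkp, Aldoa and Ldha every LZ library lies above every library of the other groups. Of all tested genes, 9.37% lay wholly below LZ in Foxo1-deficient cells and 17.1% in DZ, and the share doing both was not counted.

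Against LZ, Foxo1-deficient cells had less Ldha and Slc2a6. The 2 of 10 members called lower compare with 0.87% of all tested genes called lower, and the 0 members called higher with 0.69% (1.56% in either direction). In 5 of the 10 genes (Slc2a6, Hk2, Pfkp, Aldoa and Ldha) every Foxo1-deficient library was below every LZ library, a pattern seen in 9.37% of all tested genes, and 0 lay wholly above LZ, against 8.12%. Their median difference was -0.48, against -0.02 over all tested genes.

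DZ cells were set against the same LZ libraries, so the 2 comparisons are not independent. Slc2a6 alone fell, 1 of 10 members, where 1.38% of all tested genes were called lower and 0.56% higher (1.94% in either direction). In 6 of the 10 (the 5 above and Pfkl) every DZ library was below every LZ library, against 17.1% of all tested genes, and 0 lay wholly above, against 5.16%. FPKM summed over the genes kept was 244707 in DZ replicate 3 and 294901 to 319905 in the other libraries. Counts of groups without overlap were taken on FPKM as deposited and were not repeated under a scaling. The members' median was -0.55 and that of all tested genes -0.146, which leaves -0.40 relative to the shift of the whole transcriptome. That shift became 0.043 when libraries were centred on their medians, and the share of higher genes among all calls then was 56.8% in place of 28.9%, and 42.8% under quantile normalization.

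Between Foxo1-deficient and DZ cells none of the 10 genes passed the test, which does not show that they were alike. By limma 0 of 10 passed, against 2.85% of all tested genes called in either direction (2.1% higher and 0.75% lower). Before adjustment, 1 of 10 (Pfkl) had a limma p under 0.05, as had 1629 of the 10004 tested genes. Against LZ, 4 members were under 0.05 in Foxo1-deficient cells and 6 in DZ, beside 1343 and 1542 of the tested genes. Pfkl was the only member without overlap, being higher in each Foxo1-deficient library, as were 17.3% of all tested genes, while 5.78% lay wholly below DZ. The median was 0.00 against 0.123 over all tested genes, and under median centring it was -0.18 against -0.055, with the share of higher genes among all calls at 44.6% in place of 73.7%, and 60.8% under quantile normalization.

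**Figure D2:**
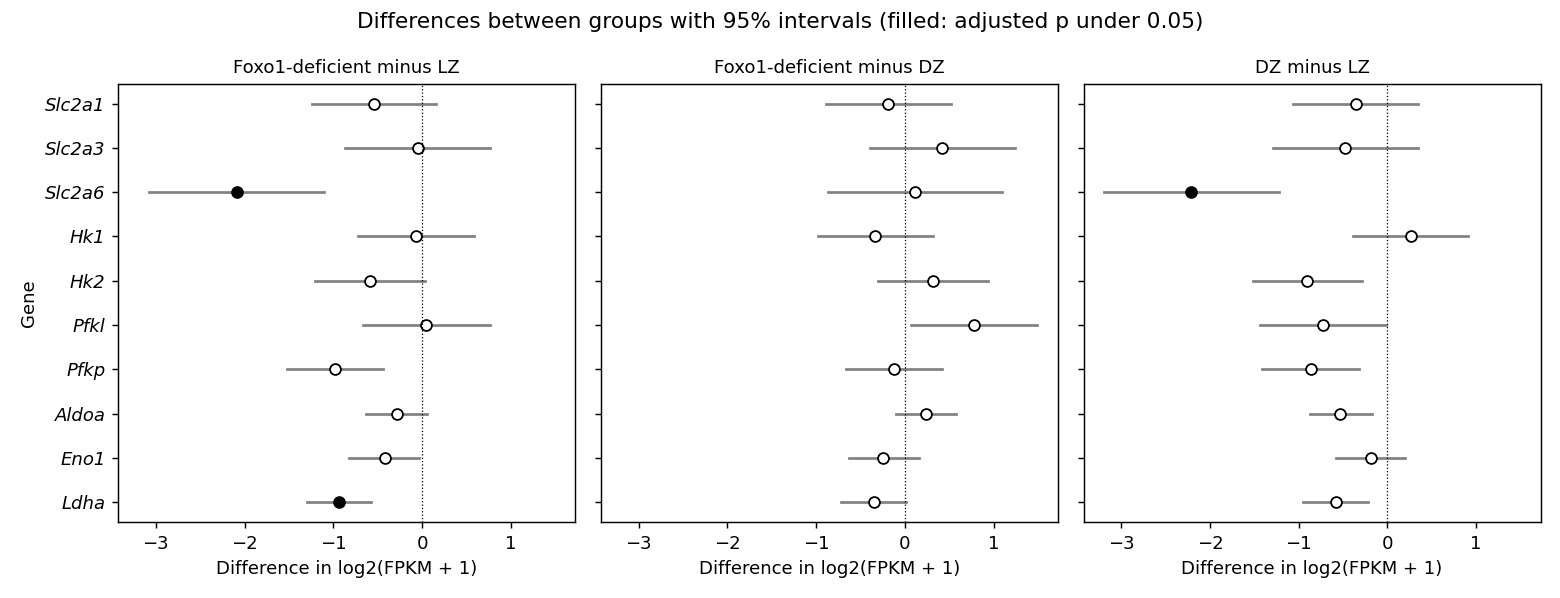
Differences in log2(FPKM + 1) for the 10 genes in the 3 comparisons, as points with 95% intervals from limma; filled points have an adjusted p under 0.05. Slc2a6 is filled at -2.09 and -2.21 against LZ and Ldha at -0.94, and no point is filled for Foxo1-deficient minus DZ.

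Among the transporters, Slc2a6 (mm9 chromosome 2, 26876885 to 26883518), which encodes GLUT6, differed most. It measured 1.34, 1.02 and 2.75 FPKM in Foxo1-deficient libraries, 3.34, 0.443 and 1.23 in DZ and 15.9, 6.93 and 9.29 in LZ. The lowest LZ library was thus above the highest of the other 6, while Foxo1-deficient and DZ libraries overlapped. It fell by 2.09 in Foxo1-deficient cells against LZ (SE 0.45, adjusted p = 0.0452) and by 2.21 in DZ against LZ (SE 0.45, adjusted p = 0.0349), and the Foxo1-deficient minus DZ difference was 0.12 (95% interval -0.87 to 1.10). Both calls are close to the threshold. Each was lost in 12 of the 16 alternative analyses, among them each without 1 LZ replicate, with the difference staying between -1.79 and -2.91 and adjusted p reaching 0.174 and 0.127. Without Foxo1-deficient replicate 1, 2 or 3 or DZ replicate 3 the call against LZ in Foxo1-deficient cells was also lost (adjusted p = 0.105, 0.123, 0.0538 and 0.0699), and so was the DZ call without DZ replicate 2 or 3 or Foxo1-deficient replicate 1 (0.115, 0.12 and 0.0503).

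Slc2a1 (chromosome 4, 118781350 to 118809934) encodes GLUT1, the main basal glucose transporter of many cells and of activated lymphocytes. It was 6.75, 2.52 and 3.42 FPKM in Foxo1-deficient libraries, 3.78, 4.76 and 5.43 in DZ and 6.45, 6.89 and 5.35 in LZ. All groups overlapped. The high Foxo1-deficient library reached the level of LZ, and the highest DZ library was just above the lowest LZ library. The difference was -0.54 in Foxo1-deficient cells against LZ (95% interval -1.24 to 0.16) and -0.36 in DZ against LZ (-1.06 to 0.34), and neither passed (adjusted p = 0.496 and 0.667).

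Slc2a3 (chromosome 6, 122677827 to 122692763) encodes GLUT3, a high-affinity transporter. It was 2.36, 2.55 and 3.36 FPKM in Foxo1-deficient libraries, 3.68, 1.21 and 1.08 in DZ and 1.94, 3.07 and 3.83 in LZ. One DZ library lay with the high LZ libraries and the other two below all others. No difference passed, and the intervals ran from -0.87 to 0.77 for Foxo1-deficient minus LZ, -0.39 to 1.24 for Foxo1-deficient minus DZ and -1.29 to 0.34 for DZ minus LZ.

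Within each library, Slc2a6 made up 12.9%, 16.8% and 28.9% of the summed FPKM of the 3 transporters in Foxo1-deficient cells, 30.9%, 6.90% and 15.9% in DZ and 65.4%, 41.0% and 50.3% in LZ. A share within a library does not depend on how libraries are scaled, and here all LZ shares were above all others. The sum of the 3 transporters was 8.69 ± 2.30 FPKM in Foxo1-deficient cells, 8.31 ± 2.25 in DZ and 19.9 ± 3.87 in LZ (SD, n = 3 each). Slc2a6 gave 10.7 ± 4.63 of the LZ sum, and glucose uptake was not measured. For these shares, as for the enzyme shares and the ratio below, an exact permutation test (two-sided) with 3 libraries a group cannot give less than p = 0.1, and over the 18 such comparisons the lowest adjusted p was 0.22.

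Hexokinase is described by 2 members. Hk3, outside the described genes, was too low to enter the tests and is not in the Hk2 share below. It was 0.589, 0.412 and 0 FPKM in Foxo1-deficient libraries, 0, 0 and 0.376 in DZ and 0 in each LZ library. Hk2 (chromosome 6, 82675021 to 82724448), the inducible isoform of growing cells, was 1.84, 2.40 and 2.95 FPKM in Foxo1-deficient libraries, 1.64, 1.33 and 2.21 in DZ and 4.08, 3.82 and 4.30 in LZ. Every LZ library was above the other 6, whose groups overlapped. The difference was -0.59 for Foxo1-deficient minus LZ (95% interval -1.21 to 0.03, adjusted p = 0.393) and -0.91 for DZ minus LZ (-1.52 to -0.29, adjusted p = 0.152), and neither passed over all genes.

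Hk1 (chromosome 10, 61731603 to 61842656), the constitutive isoform, was 4.65, 2.56 and 3.93 FPKM in Foxo1-deficient libraries, 5.46, 5.86 and 3.45 in DZ and 4.65, 3.40 and 3.60 in LZ. Its groups overlapped, and it was the only member with a positive DZ minus LZ difference (0.26, 95% interval -0.39 to 0.91), beside Eno1 at 0.00 under median centring. Another entry, 2210417K05Rik, lies inside the Hk1 locus with 0 to 6.34 FPKM, and reads of both may not be fully separated. Of the summed FPKM of Hk1 and Hk2, Hk2 took 39.9% ± 10.3 in Foxo1-deficient cells, 26.8% ± 10.8 in DZ and 51.4% ± 4.07 in LZ (SD, n = 3). The DZ and LZ shares did not overlap (at most 39.0% against at least 46.8%), and the Foxo1-deficient shares, 28.4%, 48.4% and 42.9%, overlapped both.

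Phosphofructokinase, the enzyme that commits sugar to glycolysis, is described by its platelet-type subunit Pfkp and its liver-type subunit Pfkl. The subunit Pfkm was too low to enter the tests and is not in the shares below. It was 1.11, 0.689 and 2.76 FPKM in Foxo1-deficient libraries, 0.101, 0.839 and 0.0552 in DZ and 0.395, 0 and 0 in LZ. Pfkp (chromosome 13, 6579120 to 6647970) was 8.03, 13.7 and 14.6 FPKM in Foxo1-deficient libraries, 16.4, 11.6 and 11.1 in DZ and 23.6, 25.4 and 23.6 in LZ. The LZ libraries were again above all others. At -0.98 for Foxo1-deficient minus LZ (SE 0.25, 95% interval -1.52 to -0.44) the adjusted p was 0.0841, and at -0.86 for DZ minus LZ (SE 0.25, -1.41 to -0.32) it was 0.119. The end of Pfkp overlaps that of Pitrm1 by a short stretch.

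Pfkl (chromosome 10, 77449694 to 77472541) was 8.94, 9.82 and 7.01 FPKM in Foxo1-deficient libraries, 6.68, 5.84 and 2.26 in DZ and 8.98, 7.64 and 8.05 in LZ. Unlike Pfkp, it overlapped between Foxo1-deficient and LZ libraries (difference 0.05, 95% interval -0.66 to 0.76), and DZ libraries were the low ones. The difference was 0.78 for Foxo1-deficient minus DZ (0.07 to 1.49, adjusted p = 0.262) and -0.73 for DZ minus LZ (-1.44 to -0.02, adjusted p = 0.307). DZ replicate 3, the lowest library, carried much of this: without it the 2 differences were 0.39 and -0.35.

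As a share of Pfkl and Pfkp together, Pfkp was 47.3%, 58.2% and 67.6% in Foxo1-deficient libraries, 71.1%, 66.5% and 83.0% in DZ and 72.4%, 76.9% and 74.6% in LZ. The Foxo1-deficient shares were all below those of LZ and overlapped those of DZ at 1 library. The means differed by -16.9 percentage points from LZ and by -15.8 from DZ (exact permutation p = 0.1 and 0.2, two-sided).

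**Figure D3:**
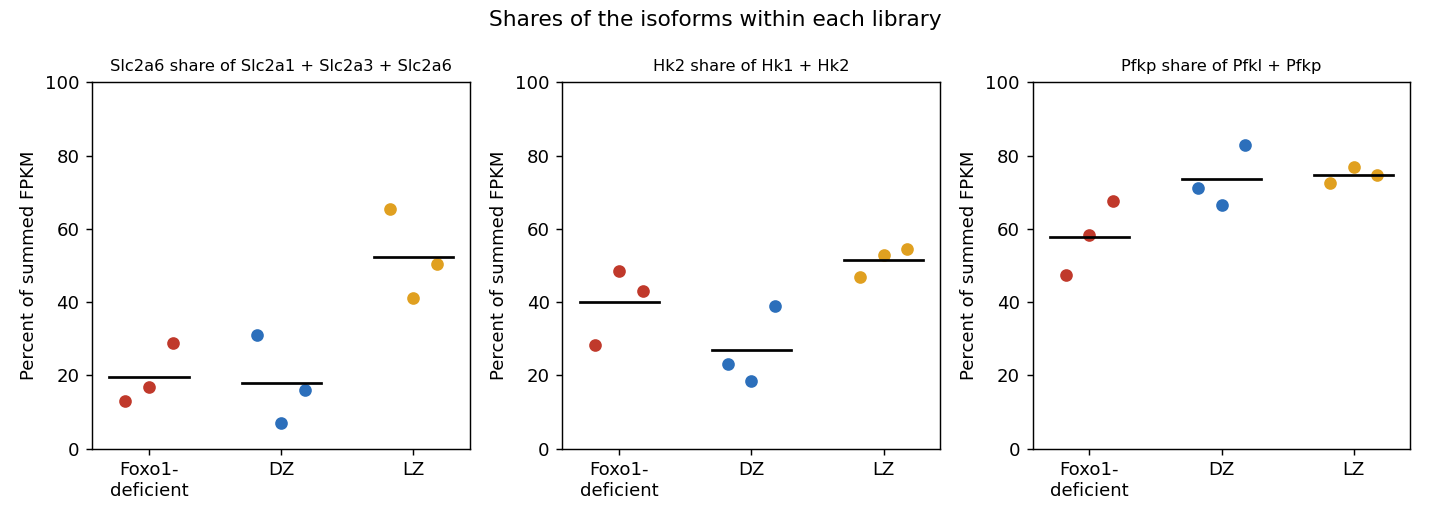
Percent of summed FPKM taken within each library by Slc2a6 among the 3 transporters, by Hk2 among Hk1 and Hk2, and by Pfkp among Pfkl and Pfkp; points are libraries and lines are group means. Slc2a6 shares are 41.0% to 65.4% in LZ and at most 30.9% elsewhere, and Pfkp shares are lowest in Foxo1-deficient cells, at 57.7% on average.

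Aldoa (chromosome 7, 133938748 to 133943961), the aldolase of most tissues, was 105, 112 and 89.2 FPKM in Foxo1-deficient libraries, 101, 86.9 and 71.5 in DZ and 127, 122 and 122 in LZ. LZ libraries agreed closely and were above all others. The difference was -0.28 for Foxo1-deficient minus LZ (95% interval -0.63 to 0.06) and -0.53 for DZ minus LZ (-0.87 to -0.18), with adjusted p = 0.466 and 0.136.

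Eno1 (chromosome 4, 149611306 to 149622982), the main enolase of non-muscle, non-neuronal cells, was 49.8, 58.8 and 47.8 FPKM in Foxo1-deficient libraries, 69.8, 64.6 and 51.2 in DZ and 58.4, 71.7 and 82.1 in LZ. Neighbouring groups overlapped and no difference passed (-0.42 for Foxo1-deficient minus LZ, adjusted p = 0.325). These values are uncertain, because the tables list the near-identical Gm5506 as well, once over the Eno1 locus (149611433 to 149622982) and once elsewhere in the genome, and its symbol occurs more than once and so was left out of the tests. The entry over the Eno1 locus held 0.000997, 0.0236 and 0.000755 FPKM in Foxo1-deficient libraries, 10.3, 15.9 and 7.80 in DZ and 33.1, 12.9 and 0.00185 in LZ. It was thus near 0 in each Foxo1-deficient library and spread widely in LZ, and the deposited tables mark it as low data in all 9 libraries. How reads were shared between these entries was not tested.

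Eno1 with both Gm5506 entries added, a sum chosen after the data were seen, came to 67.0, 75.6 and 64.3 FPKM in Foxo1-deficient libraries, 108, 111 and 80.5 in DZ and 124, 115 and 108 in LZ. The Foxo1-deficient libraries were then below all 6 wild-type libraries. The sum was lower by a log2 difference of -0.74 against LZ (SE 0.16, 95% interval -1.08 to -0.39, limma adjusted p = 0.0432) and by -0.51 against DZ (-0.86 to -0.17, adjusted p = 0.123; under median centring -0.69, adjusted p = 0.0149), while DZ minus LZ was -0.22 (adjusted p = 0.563). The difference from LZ lay between -0.80 and -0.69 whichever library was left out, but the call held in only 1 of those 9 fits, with adjusted p up to 0.159 in the others. Adding FPKM of entries of unequal length is approximate.

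**Figure D4:**
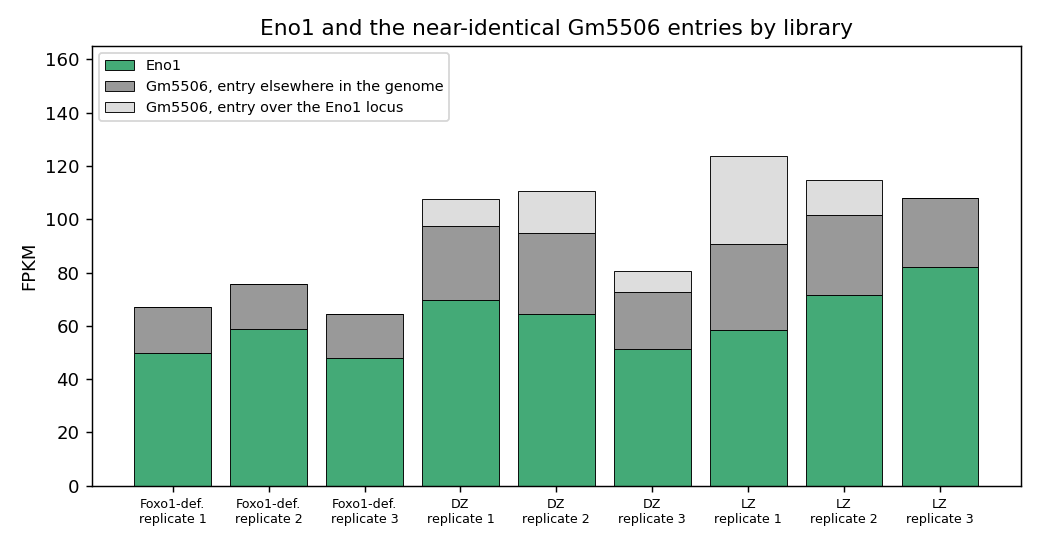
FPKM of Eno1 and of both Gm5506 entries, stacked for each of the 9 libraries, Foxo1-deficient, DZ and LZ from left to right. The stacks reach 64.3 to 75.6 in Foxo1-deficient libraries, 80.5 to 111 in DZ and 108 to 124 in LZ, and the entry over the Eno1 locus is near 0 in the 3 Foxo1-deficient libraries and in LZ replicate 3.

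Ldha (chromosome 7, 54101174 to 54110997), whose product forms the muscle-type subunit of lactate dehydrogenase, was 102, 103 and 72.5 FPKM in Foxo1-deficient libraries, 123, 129 and 99.9 in DZ and 183, 178 and 166 in LZ. All LZ libraries were above the other 6, and Foxo1-deficient and DZ libraries overlapped. It fell by 0.94 in Foxo1-deficient cells against LZ (SE 0.17, 95% interval -1.3 to -0.57, adjusted p = 0.0218). DZ minus LZ was -0.58 (SE 0.17, -0.95 to -0.22, adjusted p = 0.119), and Foxo1-deficient minus DZ was -0.35 (-0.72 to 0.01, adjusted p = 0.323). The call held under another pseudocount, without the filter, under both scalings and with the replicate block. It was lost without LZ replicate 1, 2 or 3 (adjusted p = 0.0884, 0.0793 and 0.0657), without Foxo1-deficient replicate 3 (-0.77, 0.0516), when the fit left out DZ (0.0511) and with no intensity trend (0.0875).

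Set against Gapdh of the same library, Ldha stood at 0.249 ± 0.0166 in Foxo1-deficient cells, 0.245 ± 0.0219 in DZ and 0.396 ± 0.0301 in LZ (ratio of FPKM, SD, n = 3). The Foxo1-deficient and DZ ratios overlapped and all LZ ratios were higher (exact permutation p = 0.1 for each comparison with LZ). Ldhb, the heart-type subunit, was listed at 0 in the 9 libraries, and an exact 0 in such tables can be a failed estimate.

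The rest of the pathway showed no gene past the threshold. Of 18 further glycolytic enzymes 10 were tested, and none passed in any comparison. For Foxo1-deficient minus LZ their median was -0.28 (-0.02 over all tested genes), with 8 of 10 negative. For DZ minus LZ it was -0.19, close to the -0.146 over all tested genes, also with 8 of 10 negative, while the described members had -0.55. For Foxo1-deficient minus DZ it was -0.17 (0.123 over all tested genes), with 6 of 10 negative. Pgam1, a phosphoglycerate mutase, was 47.3 ± 13.9 FPKM in Foxo1-deficient cells, 72.2 ± 8.53 in DZ and 78.0 ± 1.20 in LZ (difference from LZ -0.75, adjusted p = 0.0978). Tpi1, the triosephosphate isomerase, was 44.5 ± 7.61, 60.5 ± 9.18 and 69.8 ± 8.36 FPKM in Foxo1-deficient, DZ and LZ cells (difference from LZ -0.65, adjusted p = 0.128).

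Other enzymes moved less or were scarce. Gapdh, which makes NADH in the pathway, was the most abundant at 390.9, 398 and 315.0 FPKM in Foxo1-deficient libraries, 555, 522 and 376 in DZ and 441, 432 and 461 in LZ. Differences from LZ in Foxo1-deficient cells were -0.01 for Gpi1 (glucose 6-phosphate isomerase), -0.28 for Pgk1 (phosphoglycerate kinase) and -0.43 for Pkm2 (pyruvate kinase). Aldoc, an aldolase best known from brain, was 2.66 ± 0.921, 1.74 ± 1.11 and 6.76 ± 3.58 FPKM in Foxo1-deficient, DZ and LZ cells, and Adpgk, which uses ADP to phosphorylate glucose, 9.15 ± 2.80, 4.80 ± 1.63 and 9.41 ± 2.79. Pgam2 and Eno3, the muscle forms, were each listed at 0 in several libraries. Many of these enzymes, like Aldoa and Ldha, have processed pseudogenes, so their levels may include or lose shared reads.

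**Figure D5:**
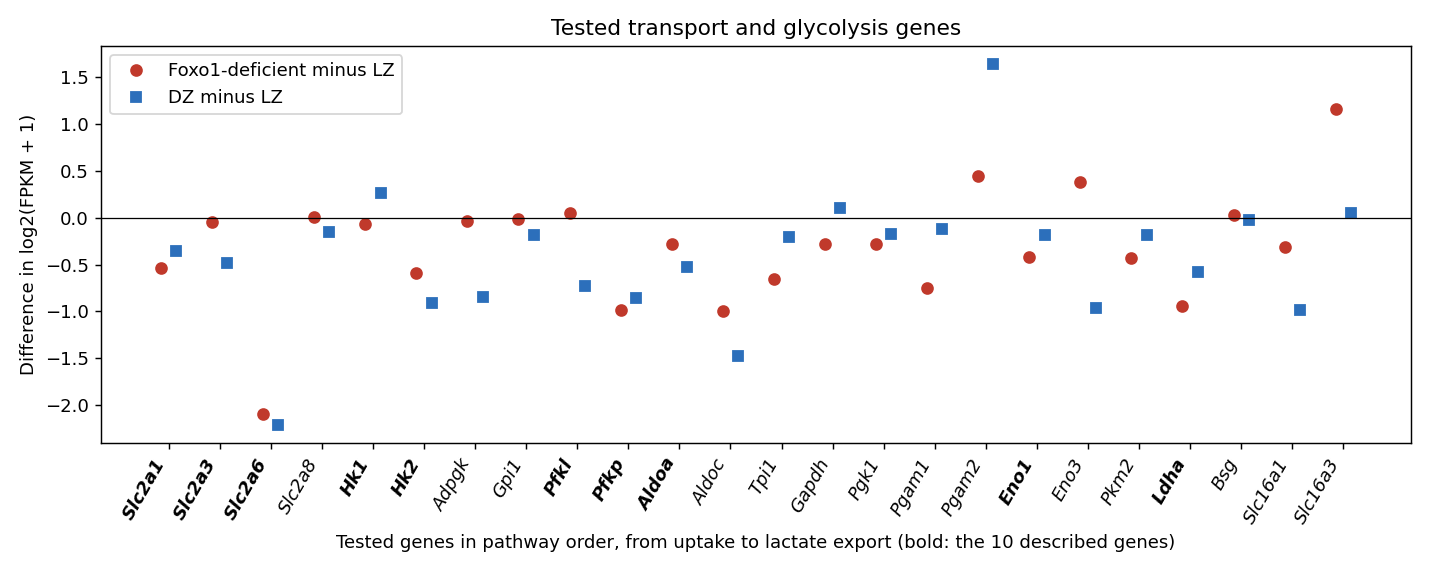
Differences in log2(FPKM + 1) of the 24 tested transport and glycolysis genes in pathway order, circles for Foxo1-deficient minus LZ and squares for DZ minus LZ, with the 10 described genes in bold. Slc2a6 lies lowest in both, at -2.09 and -2.21, and most enzymes lie between 0 and -1.

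Export and control of the pathway were measured by further lists. Of 12 other hexose and lactate transport genes 4 were tested and 0 passed. Slc16a1, the lactate transporter MCT1, was 9.04 ± 0.712 FPKM in Foxo1-deficient cells, 5.43 ± 1.64 in DZ and 11.5 ± 2.11 in LZ, and its DZ minus LZ difference of -0.98 had an adjusted p of 0.0862. Slc16a3, the lactate transporter MCT4, was 1.39, 2.54 and 2.06 FPKM in Foxo1-deficient libraries, 0.422, 0.789 and 0 in DZ and 0.34, 0 and 0.716 in LZ. It was low everywhere, without overlap between Foxo1-deficient and wild-type libraries, and did not pass (1.16 against LZ, adjusted p = 0.169). Of all tested genes, 8.12% lay wholly above LZ and 17.3% wholly above DZ in Foxo1-deficient libraries. The myeloid markers were high in the same 3 libraries, and their part in Slc16a3 was not tested.

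Of 13 genes that control phosphofructokinase or pyruvate entry into mitochondria, 11 were tested and 0 passed. Pfkfb3, which makes the activator fructose 2,6-bisphosphate, was 7.11 ± 2.36 FPKM in Foxo1-deficient cells, 2.79 ± 0.851 in DZ and 4.04 ± 1.3 in LZ. Of 14 genes of the pentose phosphate pathway and glycogen metabolism, all tested, Pygl alone passed.

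Pygl, the liver-type glycogen phosphorylase, was 2.42, 3.39 and 2.48 FPKM in Foxo1-deficient libraries, 0.151, 0 and 0.442 in DZ and 0.737, 0 and 0 in LZ. It rose by 1.64 against LZ (adjusted p = 0.0439) and by 1.66 against DZ (adjusted p = 0.0288), with no overlap. The myeloid markers summed above were high in the same 3 libraries, and their part in Pygl, and in Pfkfb3, was not tested. The calls against LZ and DZ were lost without any of the 9 libraries and without 6 of them (adjusted p up to 0.149 and 0.127), and both were lost with a pseudocount of 0.1, under median centring and with the replicate block. Without 1 library the increase stayed between 1.5 and 1.9.

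Among 18 regulators of glycolytic genes 15 were tested. Foxo1 itself fell in Foxo1-deficient cells, and Myc fell in DZ against LZ, by 1.77 (adjusted p = 0.00641), with 6.38 ± 1.88 FPKM in DZ and 23.7 ± 2.26 in LZ. In Foxo1-deficient cells Myc was 11.4, 12.8 and 8.38 FPKM, below every LZ library and above every DZ library, and the differences of -1.07 from LZ and 0.70 from DZ did not pass (adjusted p = 0.064 and 0.188). Under both scalings and without DZ replicate 3 that from LZ did pass (adjusted p = 0.0358, 0.0361 and 0.0478). Hif1a, a subunit of HIF-1, was 16.6 ± 3.50, 15.5 ± 3.11 and 16.6 ± 2.37 FPKM in Foxo1-deficient, DZ and LZ cells. Txnip, an inhibitor of glucose uptake, was 30.9 ± 2.53, 20.1 ± 5.34 and 18.2 ± 5.85 FPKM, and its difference of 0.78 from LZ did not pass (adjusted p = 0.218).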

How the data were processed

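RNA was sequenced from 9 samples of sorted germinal center B cells, 3 per group, grouped by their titles. Per the submitters' processing notes, TopHat2 2.0.8, Cufflinks 2.1.1 and mm9 were used, and the library kit was NEBNext Ultra, per the labels' protocols. The authors deposited 1 gene table per library with FPKM values and confidence bounds, per the file headers. The total behind the FPKM, any bias correction and the strand setting are not given in the sources used here.

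Each table held 23700 entries. Left out were 716 entries of 250 repeated symbols and 7 genes with a failed estimate, leaving 22977. The 10004 genes with FPKM of at least 1 in at least 3 libraries were fitted over the 9 libraries in limma 3.58.1 (R 4.3.3) on log2(FPKM + 1), letting the variance follow intensity. P-values were adjusted by Benjamini-Hochberg within each comparison. Fragments were implied from the intervals taken as 2 SD of a Poisson count, an estimate that covers counting error only. The script was tested on simulated data. Locus starts count from 1.

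Nothing in the labels makes replicates separate animals, and the spread behind each p-value may be technical. The correlation of deviations was -0.067 to 0.075 in the 9 same-number pairs, under a limit of 0.1, so the main fit used no block. Low correlations do not exclude that samples of the same number are paired. Results with a replicate block are given below. The members and gene lists were chosen with earlier results of these data known. Genes were named by rule: all members, the genes of the other lists past the threshold, the tested glycolytic enzymes, Myc, Hif1a, Txnip and Foxo1, and the 3 closest patterns of each called member. Slc16a1, Slc16a3, Pfkfb3, Pfkm, Hk3, Ldhb, Bnip3, Narf and Gm5506 were named after their values were seen. Naive and memory B cell markers summed to 12.4 to 18.6 FPKM in Foxo1-deficient cells, 8.75 to 12.2 in DZ and 15.0 to 25.6 in LZ, and plasma cell markers to 402 to 538, 363 to 520 and 252 to 320.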

Additional observations from a re-analysis of the deposited data

How the results depend on the processing

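Of 480 values of the 30 member differences under 16 alternatives, 437 kept their direction and side of the threshold, 30 lost a call, 0 gained one and 13 changed sign, none of these 13 a call. All 30 lost calls are of Slc2a6 and Ldha, described above, and the cause was not tested. Members changed between DZ and LZ numbered 1 and became 0 with a pseudocount of 0.1, without the filter, under both scalings, with only the compared groups and with no intensity trend, and 0 to 1 without 1 library. Members changed between Foxo1-deficient cells and LZ numbered 2 and became 1 with a pseudocount of 0.1, without the filter and under quantile normalization, 0 with only the compared groups and with no intensity trend, and 0 to 2 without 1 library. Against DZ the count was 0 throughout. The replicate block changed no member's call. Over all genes, the 194 calls of DZ against LZ became 109 without the filter, 122 with only the compared groups, 79 with no intensity trend, 161 with the replicate block and 72 to 210 without 1 library. The 156 calls against LZ in Foxo1-deficient cells became 99 with a pseudocount of 0.1, 58 with only the compared groups, 137 with the replicate block and 48 to 145 without 1 library, and the 285 against DZ became 221 with the replicate block and 127 to 246 without 1 library. Signs changed for Eno1 in DZ against LZ under median centring (0.00, from -0.19) and for Slc2a6 in Foxo1-deficient cells against DZ under median centring (-0.06) and quantile normalization (-0.07). Without 1 library, signs changed for Slc2a6 against DZ (-0.25 to 0.54), Pfkp against DZ (-0.26 to 0.13) and Slc2a1 against DZ (-0.51 to 0.06), and for Slc2a3 (-0.25 to 0.11), Hk1 (-0.21 to 0.12) and Pfkl (-0.05 to 0.17) against LZ, all in Foxo1-deficient cells. Pygl in DZ against LZ (-0.02) was 0.23 with a pseudocount of 0.1, 0.17 under median centring and -0.16 to 0.24 without 1 library. At 3 implied fragments, in DZ replicate 2, the level of Slc2a6 is limited by depth, and the total fragments of the libraries are not known.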

Other observations

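Genes outside the list whose levels followed the called members most closely over the 9 libraries were sought among 9994 tested genes. For Ldha they were Psme2, a subunit of the proteasome activator (Pearson's r = 0.979), Phgdh, which opens serine synthesis from a glycolytic intermediate (0.978), and Tgoln2 (0.968). For Slc2a6 they were E430025E21Rik (0.943), Pbx4, a homeobox gene (0.931), and Cd83, an activation marker (0.924). Cd83 was 62.5, 49.0 and 56.8 FPKM in Foxo1-deficient libraries, 50.6, 46.5 and 50.8 in DZ and 211, 163 and 182 in LZ. The 9 libraries fall into 3 groups and the genes were picked for their r, so these values are a description without a test.

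Of 15 hypoxia response genes outside glycolysis 9 were tested and limma called 0 in each comparison. Their median was -0.10 for Foxo1-deficient minus LZ, 0.27 for Foxo1-deficient minus DZ and -0.41 for DZ minus LZ, beside -0.02, 0.123 and -0.146 over all tested genes. Of the 9, 4 changes were positive and 5 negative for Foxo1-deficient minus LZ, and 2 positive and 7 negative for DZ minus LZ. Bnip3, a mitophagy receptor, was 1.36, 0 and 0 FPKM in Foxo1-deficient libraries, 1.36, 0.40 and 0 in DZ and 3.92, 3.90 and 1.81 in LZ. Narf went the other way, with 6.62, 10.7 and 5.35 FPKM in Foxo1-deficient libraries, 7.38, 7.14 and 6.08 in DZ and 4.79, 2.74 and 2.49 in LZ. Both were named after their values were seen.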
